A study of Bos taurus with 6 samples.

Results

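The genes described here encode the proteins of the cytosolic ribosome. They were chosen by symbol: RPL or RPS followed by a digit, RPLP0 to RPLP2 and RPSA, leaving out the S6 kinases, RPS27A and RPS19BP1. The rule found 83 of the 17325 genes, 51 of the large subunit and 32 of the small subunit. Of these, 75 are the usual ribosomal proteins, here called core members (45 large and 30 small), and 8 are paralogs of one of them.

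The RNA came from cow oocytes that had been matured in culture and stood at metaphase II (MII), where the egg halts until fertilization. The 3 libraries labelled NC are the negative control and the 3 labelled siMTFP1 are described as a knockdown of MTFP1, which encodes a mitochondrial protein with a part in fission of the organelle. All 6 share the maturation in vitro and the cell type. The reagent used in either group, its dose, the animals and the number of oocytes per library are not given in the sources used here. The labels do not say whether replicates are separate cultures, animals or pools, so the spread behind each p-value is that between these libraries and may be technical.

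The ribosome reads mRNA on its small subunit and joins amino acids on its large subunit. Each subunit has a core of ribosomal RNA and one copy of most of its proteins, so cells usually make these proteins in matched amounts. Their mRNAs begin with a terminal oligopyrimidine (TOP) tract, through which the kinase MTOR and the RNA-binding protein LARP1 hold their translation on or off as a block. A fully grown oocyte is almost silent in transcription. Its ribosomes and ribosomal protein mRNAs were stored during growth and must serve until the embryo switches on its own genome.

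Levels are in FPKM (fragments per kilobase, scaled to the library), a unit per transcript length. Whether transcript length still affects comparisons between genes in this unit was not tested. Library sums ran from 784366 to 892790.4 FPKM, and 15120 to 15533 genes lay above 0. The sequencing depth is unknown. Of 15 oocyte markers 15 were found, with a median level of 1107 FPKM. MTFP1 itself was at 0.53, 0.55 and 0.05 FPKM in NC_1, NC_2 and NC_3 and at 0.43, 0.58 and 1.15 FPKM in siMTFP1_1, siMTFP1_2 and siMTFP1_3. The siMTFP1 label thus went with no lower MTFP1 level. The log2(FPKM + 1) difference was 0.32 (two-sided exact permutation p = 0.4, with 0.1 the smallest possible for 3 against 3). The group means, 0.38 and 0.72 FPKM, lay near the floor and below the mean of 1 FPKM required for the limma test. Neither a reduction of MTFP1 nor its absence can be read from such values. The libraries are therefore called NC (the controls) and siMTFP1, after their labels, with no claim that MTFP1 was reduced.

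Ribosomal protein mRNAs were abundant, but far from equal. The 75 core members had a median of 295.6 FPKM, beside 8.57 FPKM over the 9730 tested genes, and 51 of the 75 were among the 1000 most abundant genes. Their means ran from 19.5 FPKM for RPL3 to 2029 FPKM for RPS20, a 104-fold range. Of the 75, 20 had a mean under 100 FPKM, 47 lay between 100 and 1000 FPKM, and 8 had 1000 FPKM or more.

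The small subunit stood higher on this scale. Its 30 core members had a median of 414.6 FPKM and the 45 of the large subunit a median of 140.5 FPKM. Of the members under 100 FPKM, 17 belonged to the large and 3 to the small subunit. The 3 were RPS3A, RPS6 and RPS9. No test was made of this difference, since genes are not replicates.

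The summed levels of the subunits, here with the paralogs included, were close to each other all the same. The large subunit genes summed to 15206, 18493 and 17093 FPKM in NC_1, NC_2 and NC_3, and to 12207, 15027 and 20277 FPKM in siMTFP1_1, siMTFP1_2 and siMTFP1_3. The small subunit genes summed to 17599, 19534 and 18149.6 FPKM in the controls and to 13316, 15557 and 21486 FPKM in the siMTFP1 libraries. The ratio of large to small was 0.864, 0.947 and 0.942 in the controls and 0.917, 0.966 and 0.944 in the siMTFP1 libraries. The ranges of the 2 groups overlapped, and both subunits were lowest in siMTFP1_1 and highest in siMTFP1_3.

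**Figure D1:**
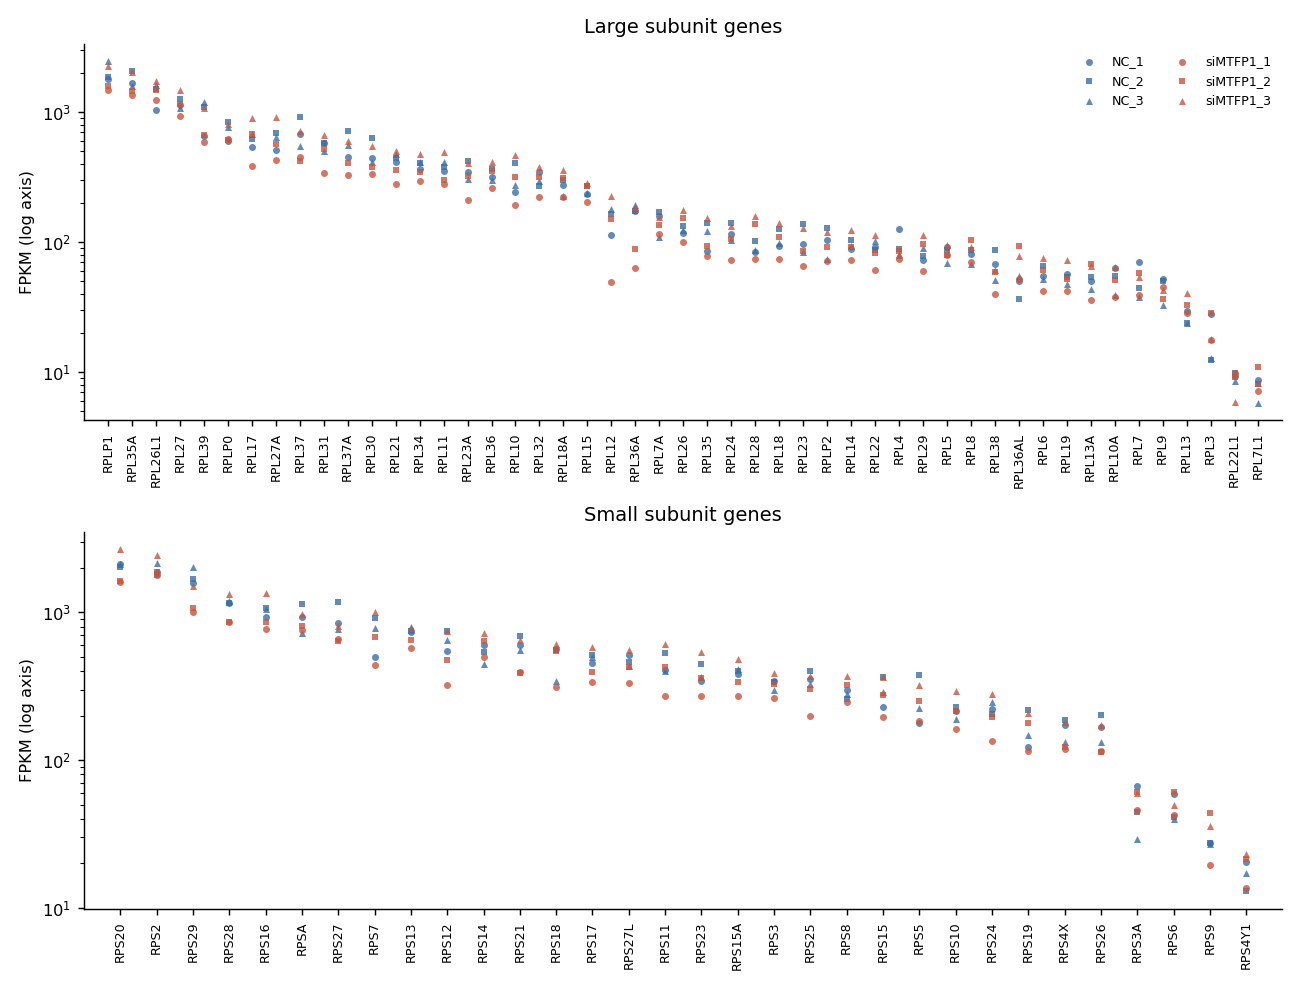
FPKM of each tested ribosomal protein gene on a log axis, ordered by mean level, with the large subunit above and the small subunit below. Each point is 1 library (blue NC, red siMTFP1, the shape gives the replicate number). The genes run from RPL7L1 at 8.13 FPKM to RPS20 at 2029 FPKM, and siMTFP1_1 (red circles) lies low for most of them.

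The most abundant member was RPS20, a small subunit protein of the region that meets the incoming mRNA and tRNA. It had 2129, 2029 and 2119.6 FPKM in the control libraries and 1599, 1622 and 2674 FPKM in the siMTFP1 libraries. The controls lay close together and the siMTFP1 libraries lay on both sides of them. RPS2, which lines the channel where mRNA enters, followed with 1875, 1789.7 and 2176 FPKM in the controls and 1779, 1867 and 2433 FPKM in the siMTFP1 libraries. RPLP1, RPL35A and RPS29 came next with means of 1912, 1691 and 1483 FPKM. Of the 10 most abundant members, 8 were among the first 10 in each of the 6 libraries: RPS20, RPS2, RPLP1, RPL35A, RPS29, RPL26L1, RPL27 and RPS28. The first 10 of a library held 41.2% to 46.9% of its summed ribosomal protein FPKM.

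At the low end of the core members stood RPL3, which helps to form the peptidyl transferase centre. It had 27.8, 12.4 and 12.8 FPKM in the controls and 17.7, 28.4 and 18.0 FPKM in the siMTFP1 libraries. RPL13, RPS9 and RPL9 followed with means of 29.7, 30.1 and 43.0 FPKM, and RPS6, the classical substrate of the S6 kinases, with 48.8 FPKM. RPL9 was named after its values were seen. The groups overlapped for all 5 genes.

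The clearest pattern in these genes was a shift of the whole set from library to library. Ribosomal protein genes took 3.98%, 4.51% and 4.09% of the summed FPKM in NC_1, NC_2 and NC_3, and 3.25%, 3.64% and 4.68% in siMTFP1_1, siMTFP1_2 and siMTFP1_3. The libraries labelled siMTFP1 thus held both the lowest and the highest share, with the 3 controls between them. The group means were 4.19% ± 0.282 and 3.86% ± 0.737 (SD, n = 3 each). In bulk RNA fewer cells of a type and less of an mRNA per cell cannot be told apart.

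Gene by gene the shift was nearly complete. Of the 81 tested members, those with a mean of at least 1 FPKM, 79 were below their own 6-library mean in siMTFP1_1 and 78 were above it in siMTFP1_3. Over all 9730 tested genes, 4117 were below it in siMTFP1_1 and 4508 above it in siMTFP1_3. The median deviation of the members on the log2(FPKM + 1) scale was -0.41 in siMTFP1_1 and 0.33 in siMTFP1_3. It was -0.03 in siMTFP1_2 and 0.01, 0.13 and -0.08 in NC_1, NC_2 and NC_3. The median of all 9730 tested genes stayed between -0.08 and 0.05 in the 6 libraries. The shift was at least as large after FPKM was rescaled by median ratios (-0.46 and 0.34 in siMTFP1_1 and siMTFP1_3) and smaller with equal FPKM sums (-0.31 and 0.25). The FPKM sum itself was lowest in siMTFP1_1 (784366) and highest in siMTFP1_3 (892790), and its part in the shift beyond that rescaling was not tested.

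The shift was seen in both subunits, and a difference between them was not tested. In siMTFP1_1 the median deviation was -0.41 for the large and -0.41 for the small subunit genes, and in siMTFP1_3 it was 0.33 and 0.34. All 32 small subunit genes lay below their mean in siMTFP1_1, and all 32 lay above it in siMTFP1_3. Of the 49 tested large subunit genes 47 lay below it in siMTFP1_1 and 46 above it in siMTFP1_3.

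The members that did not follow were few and all of the large subunit. RPL22L1 and RPL9 were not below their mean in siMTFP1_1, and RPL22L1, RPL3 and RPL4 were not above it in siMTFP1_3. These names were taken after the values were seen. RPL22L1, a paralog of RPL22, ran the other way, with 9.34, 9.79 and 8.56 FPKM in the controls and 9.91, 9.08 and 5.90 FPKM in the siMTFP1 libraries.

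Counted against the controls, 63 of the 81 members were lower in siMTFP1_1 than in every control library, and 48 were higher in siMTFP1_3 than in every control. Those are 77.8% and 59.3% of the members, beside 20.8% and 25.0% of all tested genes. In siMTFP1_2, 41 members lay within the range of the controls, 25 below it and 15 above it. siMTFP1_1 held the lowest of the 6 values for 58 members and siMTFP1_3 the highest for 44. That was 71.6% and 54.3% of the members, beside 14.2% and 15.5% of all tested genes. The median member was 1.69-fold higher in siMTFP1_3 than in siMTFP1_1. The largest such ratio was that of RPL12, a protein at the base of the stalk, at 4.58-fold. It had 113, 165 and 181 FPKM in the controls and 49.7, 149 and 228 FPKM in the siMTFP1 libraries.

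**Figure D2:**
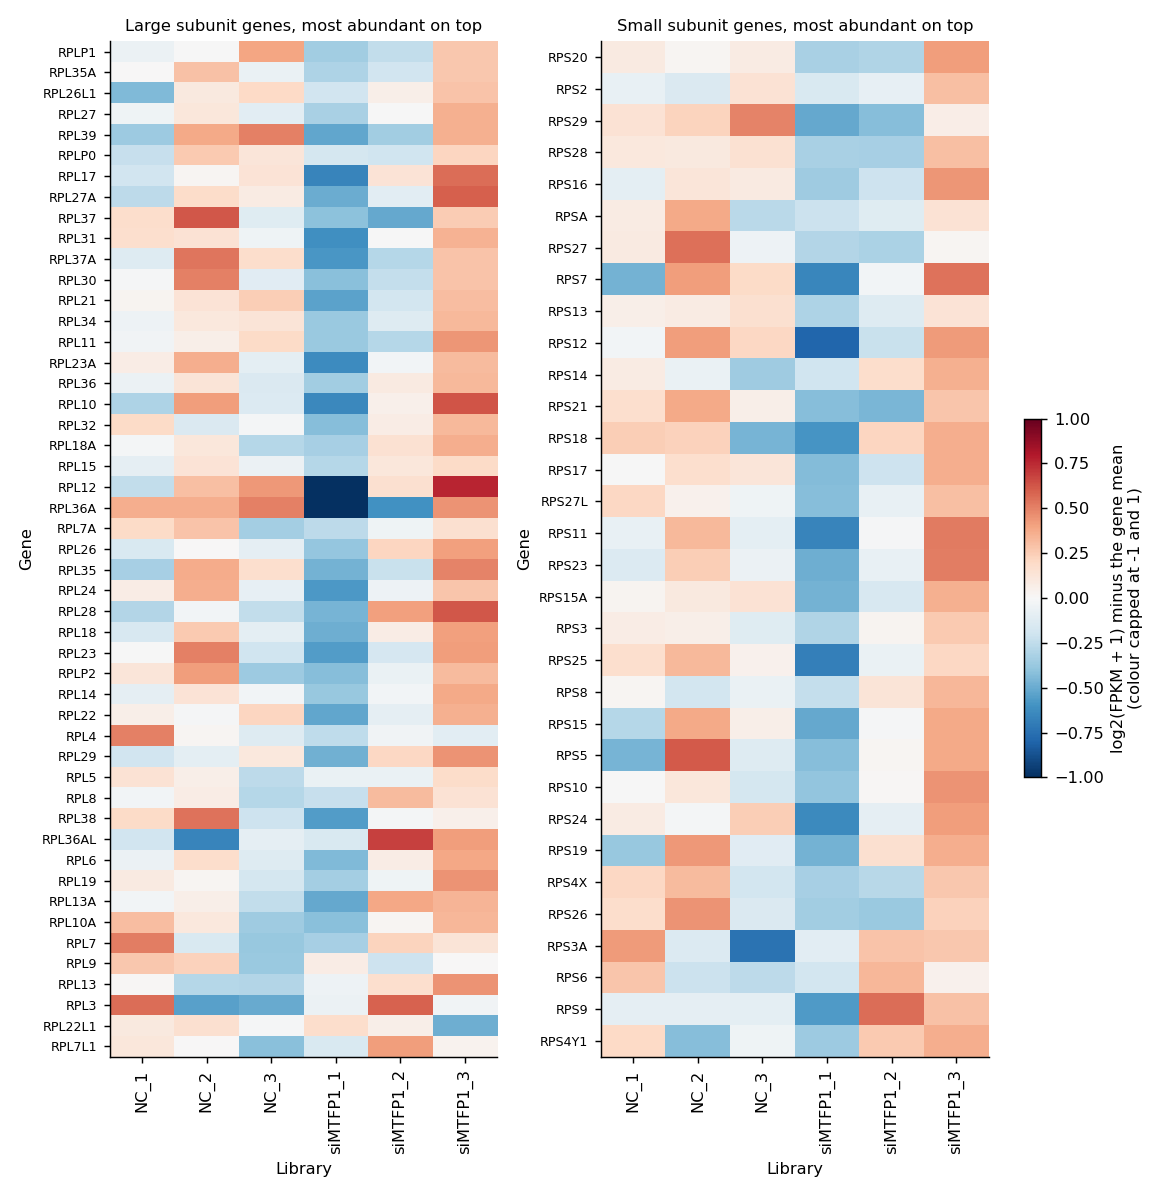
Deviation of each tested ribosomal protein gene (rows, most abundant on top) from its 6-library mean in each library (columns), on the log2(FPKM + 1) scale, red above and blue below the mean. The column of siMTFP1_1 is blue for 79 of 81 genes and the column of siMTFP1_3 is red for 78 of 81.

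The spread between replicates was therefore wider in the libraries labelled siMTFP1. The median coefficient of variation of the 81 members was 14.5% over the 3 controls and 27.4% over the 3 siMTFP1 libraries. The standard deviation of the log2 values was larger in the siMTFP1 group for 65 members, which is 80.2% of them, beside 49.1% of all tested genes. The members share the same 6 libraries and moved together, so these counts describe the libraries and are not independent observations.

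Of the ribosomal proteins outside the symbol rule, 3 were followed and went with the members. RPS27A encodes a ribosomal protein fused to ubiquitin, FAU encodes one fused to a ubiquitin-like protein, and RACK1 sits on the head of the small subunit. Their median deviation was -0.34 in siMTFP1_1 and 0.30 in siMTFP1_3, with 3 of 3 genes below their means in the former and above them in the latter. RPS27A had 2341, 2594 and 2347 FPKM in the controls and 1526, 1773 and 2666 FPKM in the siMTFP1 libraries. FAU averaged 1231 FPKM and RACK1 averaged 32.0 FPKM over the 6 libraries.

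Other genes of translation had smaller median deviations in these libraries. The 8 genes listed as elongation factors, TPT1 and EIF5A among them, had medians of 0.07 in siMTFP1_1 and -0.03 in siMTFP1_3. Single genes went both ways, with 3 of the 8 below their means in siMTFP1_1 and 3 above them in siMTFP1_3. TPT1 (68.58 and 100.88 FPKM) and EEF1B2 (22.95 and 32.96 FPKM, named after its values were seen) had the order of the members. EIF5A (182.36 and 156.81 FPKM) and EEF1E1 (106.69 and 86.62 FPKM) had the opposite order. EIF5A led them with a mean of 168 FPKM, followed by EEF1E1 (96.5 FPKM), TPT1 (86.6 FPKM) and EEF1A1 (37.6 FPKM). EEF1A1, the factor that brings aminoacyl-tRNA to the ribosome, had 43.1, 38.9 and 35.7 FPKM in the controls and 32.6, 38.3 and 37.0 FPKM in the siMTFP1 libraries. The 13 other genes listed for a TOP tract, led by NPM1 (1331 FPKM), EIF3E (913.6 FPKM), EIF3L (766.6 FPKM) and BTF3 (507.9 FPKM), had medians of 0.05 and 0.02. Of the 13, 4 lay below their means in siMTFP1_1 and 8 above them in siMTFP1_3. The 15 oocyte markers had medians of 0.04 and 0.14. Whether these lists differ from the ribosomal protein genes was not tested.

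The lists of genes that build ribosomes or control TOP mRNAs had medians nearer to 0 than the members in siMTFP1_1 and siMTFP1_3. The 46 tested ribosome biogenesis genes had medians of 0.06 in siMTFP1_1 and -0.07 in siMTFP1_3. The 14 tested regulators of TOP mRNAs had 0.14 and -0.09. Of the 14, 11 were above their means in siMTFP1_1 and 12 below them in siMTFP1_3, the opposite order to that of the ribosomal protein genes. All tested genes had the same order as the regulators, with 5613 of 9730 above in siMTFP1_1 and 5222 below in siMTFP1_3. Among the regulators the cap-binding protein gene EIF4E averaged 620.03 FPKM and RHEB, the activator of MTOR, averaged 419.4 FPKM. CNBP and SSB, which bind TOP mRNAs, averaged 170.1 and 113.8 FPKM.

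**Figure D3:**
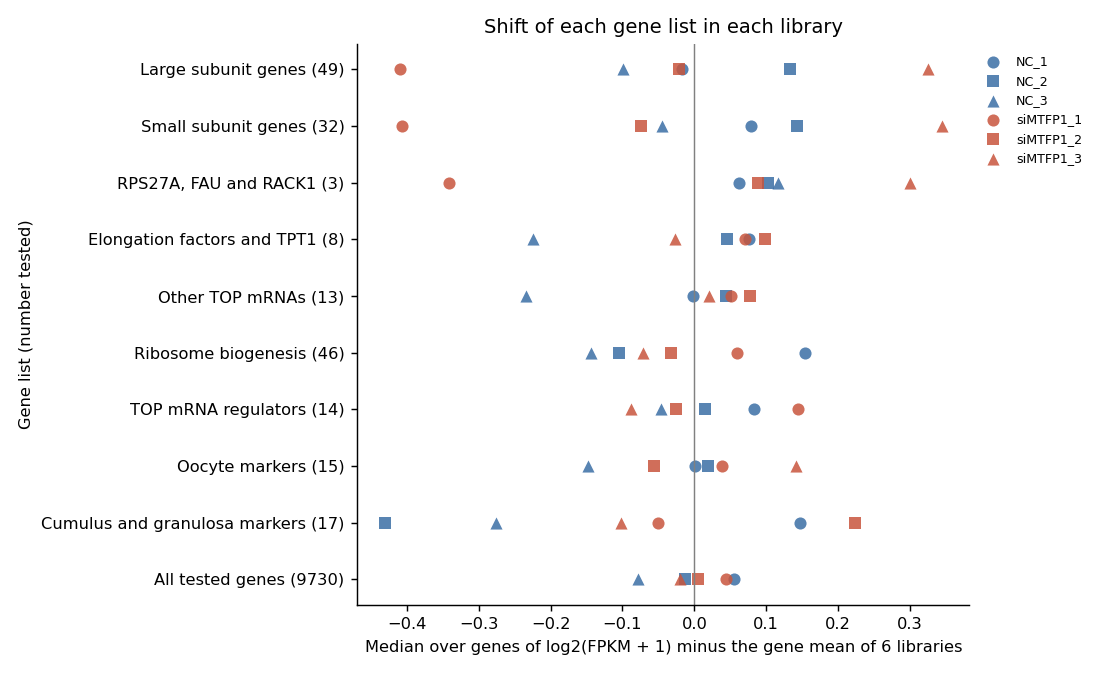
Median deviation from the 6-library mean, on the log2(FPKM + 1) scale, for each gene list (rows, number of tested genes in brackets) in each library (points; blue NC, red siMTFP1). siMTFP1_1 and siMTFP1_3 lie at -0.41 and 0.33 for the large subunit genes and at -0.41 and 0.34 for the small, while all tested genes lie between -0.08 and 0.05.

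RNA of cumulus cells, the somatic cells around the oocyte, was followed through 27 of 28 listed markers. Their summed level was 423, 234 and 349 FPKM in the controls and 261, 1262 and 259 FPKM in the siMTFP1 libraries. The median deviation of the 17 tested markers was -0.05, 0.22 and -0.10 in siMTFP1_1, siMTFP1_2 and siMTFP1_3. siMTFP1_1 and siMTFP1_3 had nearly the same sum, and siMTFP1_2 had the highest sum. TIMP1 made most of that sum, with 955 FPKM in siMTFP1_2. STAR averaged 65.7 FPKM over the 6 libraries. The granulosa receptor FSHR, named after its values were seen, was at 0 in 5 libraries and at 0.02 FPKM in NC_3, and 2 to 5 markers per library were at 0. Of the 17 tested markers 14 had a higher mean in siMTFP1, beside 54.2% of all tested genes. In that direction 4 of the 17 had an unadjusted limma p under 0.05, beside 3.86% of all tested genes. They were INHA, SPARC, VIM and SERPINE2, named after their values were seen. The 3 markers with a lower mean were TNFAIP6, PTX3 and PTGS2, also named after their values were seen. Their log2 differences were -1.36, -0.34 and -0.03. SERPINE2 alone did not overlap between the groups, beside 5.97% of all tested genes that lay higher without overlap. It had 13.3, 13.8 and 16.4 FPKM in the controls and 24.6, 43.1 and 18.0 FPKM in siMTFP1. After adjustment 0 markers passed. The part of these cells in the ribosomal protein levels was not tested beyond these values.

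Between the labelled groups, 0 of the 81 tested ribosomal protein genes passed the test (limma over all 9730 tested genes, Benjamini-Hochberg adjusted p under 0.05). Over all tested genes 0 passed as well, which is 0% of them. The smallest adjusted p of a member was 0.647, that of RPS29. At an unadjusted p under 0.05 there were 2 members with a lower mean in siMTFP1, RPS29 and RPL36A, or 2.47%, beside 2.66% of all tested genes. There was 1 with a higher mean, RPL36AL, or 1.23%, beside 3.86% of all tested genes. The groups did not overlap for 1 member in the lower direction, RPS29, and for 0 in the higher direction, beside 5.05% and 5.97% of all tested genes. These shares lie at or below the background.

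By sign, the siMTFP1 mean was lower for 52 of 81 members and higher for 29, beside 45.8% and 54.2% of all tested genes. After median-ratio and quantile scaling 58 and 54 members were lower, beside 51.9% and 53.0% of all tested genes. The median log2 difference was -0.09 over the members and 0.02 over all tested genes. The large subunit had 29 of 49 genes lower with a median of -0.04, and the small subunit had 23 of 32 lower with a median of -0.10. The median standard error of a member was 0.21. Both the count and the median turned on single libraries: without siMTFP1_1, 26 members were lower and the median was 0.13, without siMTFP1_3, 67 were lower and the median was -0.28, and without NC_2 the median was 0.01. At an unadjusted p under 0.05 there were 22 lower members without siMTFP1_3 and 8 higher members without siMTFP1_1, or 27.2% and 9.88% of the members, beside 3.06% and 5.31% of all tested genes in the same fits. In both fits 0 members passed the adjusted threshold.

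RPS29 had the smallest p of all members. It is a short zinc-binding protein of the small subunit head. It had 1591, 1683 and 2027 FPKM in the controls and 1011, 1074 and 1511 FPKM in the siMTFP1 libraries. Each siMTFP1 library was below each control, although siMTFP1_3 came close to NC_1. The group means were 1767 ± 230 and 1199 ± 272 FPKM (SD, n = 3), and the log2 values differed by -0.57 (SE 0.17, limma, Benjamini-Hochberg adjusted p = 0.647).

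RPS27, RPS21 and RPL37 were the next in the lower direction after RPL36A. RPS27, a zinc-binding protein of the small subunit, had 853, 1175 and 777 FPKM in the controls and 656, 644 and 814 FPKM in the siMTFP1 libraries (log2 difference -0.39, SE 0.17). RPS21, which lies near the site where mRNA leaves, had 599.8, 697 and 558 FPKM and then 397, 389.9 and 649 FPKM (-0.40, SE 0.20). RPL37, a zinc-binding protein of the large subunit, had 675, 918 and 549 FPKM and then 449.7, 418 and 713 FPKM (-0.45, SE 0.24). For these 3 genes siMTFP1_3 alone overlapped the controls, and the limma adjusted p lay between 0.766 and 0.818. Without NC_2 the difference was -0.22 for RPS27 and -0.25 for RPL37. Without siMTFP1_3 it was -0.64 for RPS21 and -0.69 for RPL37.

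In the higher direction RPL13, RPL28, RPS14 and RPS3A followed RPL36AL. RPL13 had 29.5, 23.8 and 23.6 FPKM in the controls and 28.2, 32.9 and 40.3 FPKM in the siMTFP1 libraries (log2 difference 0.38, SE 0.17). RPL28 averaged 91.1 ± 9.39 and 124 ± 44.1 FPKM (SD, n = 3; 0.37, SE 0.26). RPS14, near the mRNA exit, averaged 529.8 ± 80.1 and 621 ± 117 FPKM (0.22, SE 0.17). RPS3A averaged 47.0 ± 18.9 and 55.3 ± 8.20 FPKM (0.30, SE 0.27). The groups overlapped in all 4, and the limma adjusted p was 0.766 for RPL13, 0.877 for RPL28, 0.887 for RPS14 and 0.899 for RPS3A. These differences rested on single libraries: that of RPS3A was 0.0038 without NC_3 and 0.59 without NC_1, and that of RPS14 was 0.10 without NC_3, 0.10 without siMTFP1_3 and 0.38 without siMTFP1_1. That of RPL28 was 0.16 without siMTFP1_3 and 0.70 without siMTFP1_1, and that of RPL13 was 0.25 without siMTFP1_3.

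**Figure D4:**
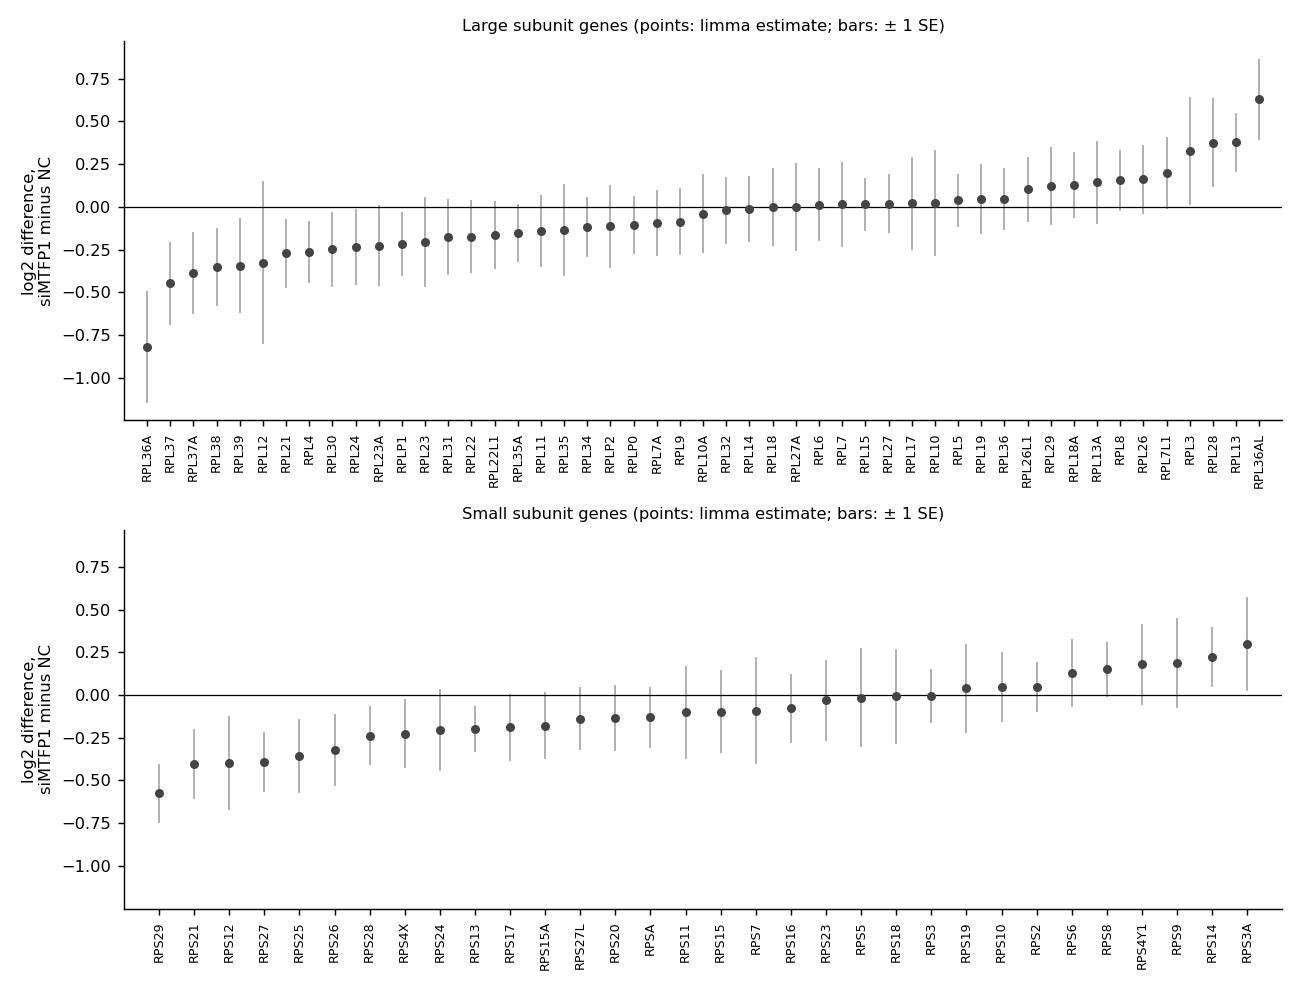
Log2 difference (libraries labelled siMTFP1 minus NC, log2(FPKM + 1) scale) of each tested ribosomal protein gene, ordered by size, with the large subunit above and the small subunit below. Points are limma estimates and bars are ± 1 standard error. The values run from -0.82 for RPL36A to 0.63 for RPL36AL, and 0 of 81 passed the adjusted threshold.

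Among the groups by place in the ribosome, 0 members reached an unadjusted p under 0.05. The stalk recruits the translation factors. Its genes RPLP0, RPLP1 and RPLP2 and the stalk base gene RPL12 all had lower means in siMTFP1, beside 52 of all 81 members. The log2 differences were -0.11, -0.22, -0.11 and -0.33, with standard errors of 0.17, 0.19, 0.24 and 0.48. The levels of the stalk genes differed widely. RPLP1 averaged 1912 FPKM, RPLP0 averaged 711 FPKM and RPLP2 averaged 98.4 FPKM, although the proteins of RPLP1 and RPLP2 form pairs on the ribosome. RPL5 and RPL11, which enter the large subunit together with its smallest ribosomal RNA and can also bind MDM2, averaged 83.5 and 369.9 FPKM, with log2 differences of 0.04 and -0.14.

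Of the 8 genes for the peptide exit tunnel and its rim, 5 had a lower mean and 3 a higher mean, beside 52 and 29 of all 81 members. RPL39, a very short protein inside the tunnel, had 653, 1096 and 1195 FPKM in the controls and 586, 661 and 1077 FPKM in the siMTFP1 libraries. RPL4, which also lines the tunnel, averaged 89.1 FPKM. RPL17, at the tunnel exit, averaged 635 FPKM and had a 2.34-fold ratio of siMTFP1_3 to siMTFP1_1. RPL10 and RPL24, which join the large subunit late, averaged 316.8 and 111 FPKM, with log2 differences of 0.02 and -0.24.

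On the small subunit, the genes at the mRNA entry had differences between the groups smaller than their standard errors. RPS2, RPS3 and RPS9 had log2 differences of 0.05, -0.01 and 0.19, with standard errors of 0.15, 0.16 and 0.26. RPS9 had 27.3, 27.5 and 27.2 FPKM in the controls and 19.4, 43.5 and 35.9 FPKM in the siMTFP1 libraries, which lay on both sides. At the mRNA exit, 4 of 5 genes had a lower mean, beside 52 of all 81 members, with RPS26 at -0.32 and RPS28 at -0.24. RPSA, which doubles as a laminin receptor, had 934, 1145 and 729.6 FPKM in the controls and 759, 807 and 971 FPKM in the siMTFP1 libraries (-0.13, SE 0.18). RPS15 and RPS23, near the decoding centre, had -0.10 and -0.03.

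The 8 paralogs were compared with their parent genes through the paralog's share of the pair's summed FPKM. Near-identical copies can exchange reads, and no source used here says how the authors divided such reads, so these shares are uncertain. RPL26L1 was the one paralog above its parent. It averaged 1432 FPKM beside 133 FPKM for RPL26, a 10.7-fold difference, and held 89.8%, 92.0% and 92.9% of the pair in the controls and 92.5%, 90.6% and 90.8% in the siMTFP1 libraries. RPL26L1 was also the sixth most abundant member, and its share varied little between libraries.

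RPS27L held a smaller share of its pair. It averaged 455 FPKM beside 819.8 FPKM for RPS27, or 34.0% ± 5.08 of the pair in the controls and 38.0% ± 3.71 in the siMTFP1 libraries (SD, n = 3). RPS4Y1, which in cattle is not on the Y chromosome in the RefSeq table, RPL7L1 and RPL22L1 held between 4.98% and 16.0% of their pairs in each library. RPL10L, known from the testis, was at 0.08 to 0.17 FPKM. RPL3L, known from muscle, was listed at 0 in 5 libraries and at 0.04 FPKM in siMTFP1_2. RPL10L and RPL3L were below the expression filter and were not tested with limma.

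RPL36A and RPL36AL had differences of opposite sign. RPL36A had 173.9, 173.9 and 191 FPKM in the controls and 63.4, 88.4 and 185 FPKM in the siMTFP1 libraries. On the log2 scale this was -0.82 (SE 0.33, limma, Benjamini-Hochberg adjusted p = 0.750). siMTFP1_1 and siMTFP1_2 were low, and siMTFP1_3 lay within the range of the controls. The difference was -0.49 without siMTFP1_1 and -1.25 without siMTFP1_3. RPL36AL had 50.5, 36.2 and 54.5 FPKM in the controls and 52.0, 93.4 and 77.5 FPKM in the siMTFP1 libraries, which was 0.63 on the log2 scale (SE 0.24, the same adjusted p). Here siMTFP1_2 and siMTFP1_3 were above all controls.

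The share of RPL36AL in the pair was 22.5%, 17.2% and 22.2% in the controls and 45.1%, 51.4% and 29.6% in the siMTFP1 libraries. Each siMTFP1 library lay above each control, by 21.4 percentage points on average. An exact two-sided permutation test gave p = 0.1, the smallest that 3 against 3 can give, and 0.4 after Benjamini-Hochberg adjustment over the 8 pairs. RPL10L gave the same p at levels close to 0. The other pairs had exact p-values from 0.3 to 1. The sum of RPL36A and RPL36AL was 224, 210.1 and 246 FPKM in the controls and 115, 182 and 262 FPKM in the siMTFP1 libraries.

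**Figure D5:**
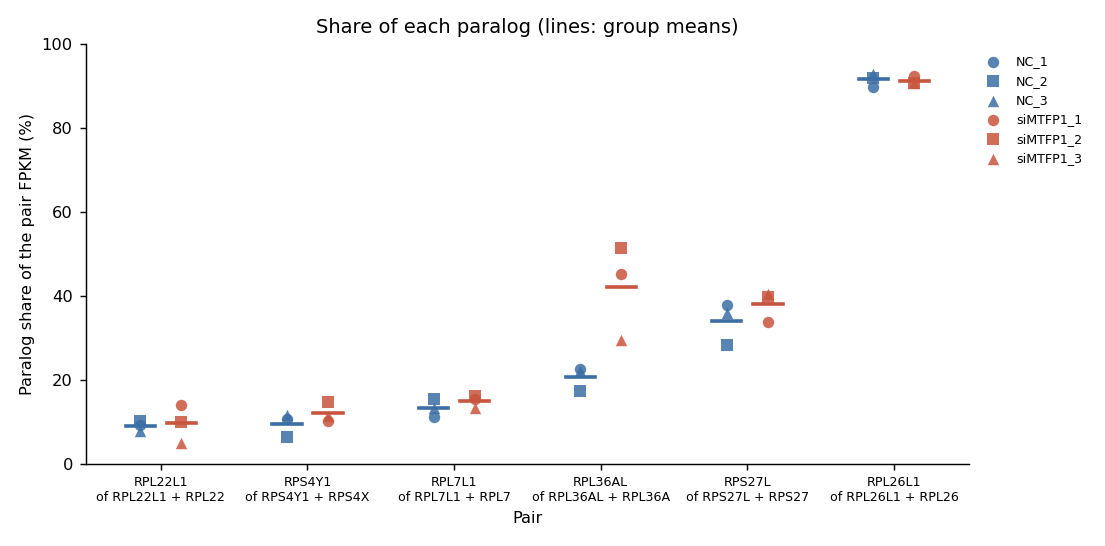
Share of the paralog in the summed FPKM of the paralog and its parent gene, in percent, for the 6 pairs whose paralog has a mean of at least 1 FPKM. Points are libraries (blue NC, red siMTFP1) and lines are group means. RPL26L1 holds 89.8% to 92.9% of its pair in the 6 libraries, and RPL36AL averages 20.6% in the controls and 42.0% in the siMTFP1 libraries.

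In the other ribosome-related lists 0 genes passed the adjusted threshold between the labelled groups. Over all tested genes 54.2% had a higher and 45.8% a lower mean. At an unadjusted limma p under 0.05 were 3.86% and 2.66% in those directions. Of the 46 tested biogenesis genes 30 had a higher and 16 a lower mean, with a median log2 difference of 0.03, and 2 in each direction reached an unadjusted p under 0.05. PNO1, BRIX1, UTP14A and NMD3 were the most abundant. NMD3, the adaptor that carries the new large subunit out of the nucleus, had 104, 114 and 123 FPKM in the controls and 85.6, 71.6 and 87.2 FPKM in the siMTFP1 libraries. The groups did not overlap, and the log2 values differed by -0.48 (SE 0.14, limma, Benjamini-Hochberg adjusted p = 0.639). Other biogenesis genes did not overlap either: RPF2 and HEATR1 lay lower, and EIF6 and MRTO4 higher (named after their values were seen). Over all tested genes 5.05% lay lower and 5.97% higher without overlap. Of the 8 tested RNA polymerase I genes 5 were higher and 3 lower. PDCD2L, BCCIP, PDCD2 and HEATR3, which help newly made ribosomal proteins to fold or reach their place, averaged 71.6, 46.4, 39.6 and 4.41 FPKM, and 4 of 5 tested genes of that list had a higher mean. Factors that protect idle ribosomes in eggs had 5 of 7 tested genes higher, with EIF5A at 168 FPKM, SERBP1 at 48.2 FPKM, IFRD1 at 34.96 FPKM and DAP at 32.9 FPKM.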

How the data were processed

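FPKM values of 17325 genes, with 2 decimals, were deposited as 1 table per library (6 in all), per the file headers. RNA was extracted with TRIzol and made into mRNA libraries with a BGI kit, per the labels' protocols. The build was ARS-UCD1.2, and the tools listed, without a role, were RSEM 1.3.1, HISAT2 2.2.1, DESeq2 1.4.5 and Bowtie2 2.3.4.3, per the submitters' processing notes; strand use and the handling of shared reads are not given in the sources used here. Samples were grouped by their titles. All 83 member IDs matched a RefSeq table. It is of another assembly (ARS-UCD2.0) and served for names, so no coordinates are printed. Some genes of the lists are not reported here. Sequence features had been planned and were not analysed here. Depth is unknown. For 14 of 15 library pairs the commonest log2 ratio of low values (0.1 to 0.6 FPKM) was within 0.1 of 0. Such values, given with 2 decimals, can tie exactly at a ratio of 0, so this count does not show the depth.

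Values were taken as log2(FPKM + 1), which understates differences of low genes. Genes with a mean of at least 1 FPKM (9730, with 81 members) entered a two-sided test by group alone (lmFit and eBayes with a trend, limma 3.58.1, R 4.3.3), with Benjamini-Hochberg adjustment over all tested genes at 0.05. The test was checked on simulated data. Lists were described by counts and medians, without a set test. Single values were compared by exact permutation (scipy 1.17.1). Members, lists and tests were chosen with earlier results of these data known. Named genes were MTFP1, the 5 members with the smallest p in each direction, the 5 highest and 5 lowest members, members described by role or as paralogs, and up to 4 abundant genes of each other list; others are marked. Alternatives were pseudocounts of 0.1 and 5, no filter or a mean of at least 5 FPKM, array weights, a replicate block, 3 scalings (median ratio, quantile, equal sums), leaving out paralogs and leaving out each library. The replicate numbers were not taken as pairs, as the labels state no pairing. The check given with the alternatives cannot exclude one.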

Additional observations from a re-analysis of the deposited data

How the results depend on the processing

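In all 15 alternative fits 0 ribosomal protein genes passed the adjusted threshold, with a smallest limma adjusted p of a member between 0.161 (without siMTFP1_3) and 1.00. Over all genes, 2 passed with a filter of 5 FPKM and 2 with equal FPKM sums, and 0 to 2 when 1 library was left out. The count of members with a lower mean ran from 26 (without siMTFP1_1) to 67 (without siMTFP1_3) when 1 library was left out, and from 48 to 58 in the other fits. The median log2 difference of the members ran from -0.28 to 0.13 when 1 library was left out, that of the large subunit from -0.22 to 0.16 and that of the small subunit from -0.32 to 0.11. With the other settings these 3 medians stayed below 0. The difference in share of summed FPKM stayed negative, from -0.75 to -0.04 percentage points when 1 library was left out. The 10 members named by their p and NMD3 kept their direction in every fit, but RPS3A was at 0.0038 without NC_3, and leaving out 1 library moved 8 of the 10 by over 1.5 times, as given beside them. MTFP1, at levels near the floor, stayed higher in the libraries labelled siMTFP1 in all 8 alternatives (exact permutation p from 0.2 to 0.8).

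With the replicate number as a block the median over the members was -0.09 and 0 members passed. Deviations of same-numbered libraries from their group means correlated at 0.03, -0.16 and 0.07 over the tested genes. The numbers were not taken as pairs, although such correlations cannot exclude a shared culture or batch. The spread between 3 libraries per group limits the precision: a member had a median standard error of 0.21.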

Other observations

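RPL36A and RPL36AL give different pictures depending on how the pair is read. Alone, each differed between the labelled groups at an unadjusted p under 0.05, in opposite directions, and neither passed after adjustment. Summed, the pair was lowest in siMTFP1_1 (115 FPKM) and highest in siMTFP1_3 (262 FPKM), the same ends as for the set of ribosomal protein genes, while the controls stood in another order. siMTFP1_3, in which ribosomal protein mRNA was most abundant, had an RPL36AL share of 29.6%, nearest to the controls. The part of reads shared between the copies in these values was not tested.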
